A study of Mus musculus with 14 samples.

Results

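The 35 genes described here are the amino acid stress genes controlled by ATF4 and the folding and degradation genes of the endoplasmic reticulum (ER), chosen by symbol and without use of their values, out of 55414 genes in the count table. Of the 35, 34 passed the filter on low counts and were tested among 12851 genes. Stc2, a secreted glycoprotein, was left untested, with 4 counts in 1 fresh medium library, 1 count in each of 2 Fer1 libraries and 0 counts in the other libraries. Ddit3 had a second identifier with 0 counts in every library, so that 36 rows carried these symbols.

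Primary bone marrow-derived macrophages (pBMDMs), wildtype in the labels and from C57BL/6N mice in the study's methods, were kept for 24 h in fresh medium or in supernatant, passed through a filter, from mouse embryonic fibroblasts (MEFs) of the Pfa1 line. Pfa1 MEFs lose GPX4, an enzyme that removes lipid hydroperoxides, when 4-hydroxytamoxifen (4OHT, written Tam in the sample titles) is added, and then die by ferroptosis, an iron-dependent necrosis. The 4 supernatants came from untreated MEFs (ctrl), from MEFs with 4OHT (4OHT, the one the labels call ferroptotic), from MEFs with 4OHT and the ferroptosis inhibitor Ferrostatin-1 (4OHT_Fer1) and from MEFs with Ferrostatin-1 alone (Fer1). There were 3 libraries of each supernatant and 2 of fresh medium (medium), 14 in all, and the supernatants carried whatever 4OHT or Ferrostatin-1 the MEFs had been given.

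When amino acids run short, when unfolded protein builds up in the ER or when haem is lacking, kinases phosphorylate the translation factor eIF2. General translation then drops while ATF4 is translated, and ATF4 switches on genes for amino acid synthesis, uptake and tRNA charging, the integrated stress response. Unfolded protein also activates the sensors IRE1, which splices Xbp1 mRNA, and ATF6. Their transcription factors raise ER chaperones and the machinery that sends misfolded protein to degradation. Translation of Atf4 and splicing of Xbp1 cannot be read from counts of 3′ ends, so the target genes are the readout here. Macrophages, which secrete much protein and take up amino acids from their surroundings, use both branches.

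The promoters of these genes in the reference sequence were searched for the short motifs through which these branches act. RefSeq promoters (build GRCm38.p6), 250 bases before to 50 after a start site, were found for 31 of the 35 genes. The C/EBP-ATF response element core, TGATGNAA on either strand, through which ATF4 acts, was in the promoters of 6 of the 31 (19.4%), against 4.51% of the 27025 genes in the promoter table. Of those 6, 5 held it before the start site (Asns, Chac1, Herpud1, Nupr1 and Vldlr) and Trib3 held it after. Matches are letters, not proven sites. In the stretches below the core is in capitals, read on the strand of the gene, 5′ to 3′.
Asns, chr6:7693210-7693262, minus strand: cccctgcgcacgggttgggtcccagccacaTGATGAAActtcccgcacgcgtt
Chac1, chr2:119351019-119351086, plus strand: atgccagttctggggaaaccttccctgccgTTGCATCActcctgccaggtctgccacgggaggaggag
Nupr1, chr7:126625543-126625610, minus strand: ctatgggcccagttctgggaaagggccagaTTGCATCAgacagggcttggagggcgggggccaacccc

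The ER stress response element, through which ATF6 and XBP1 act, reads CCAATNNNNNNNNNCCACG. It was in 5 of the 8 ER chaperone promoters in the table (62.5%: Hspa5, Hsp90b1, Calr, Creld2 and Pdia6), in none of the other promoters of these genes and in 0.137% of all genes. Its second form, ATTGGNCCACG, was in Herpud1, 3.23% of the 31 genes against 0.0444% of all. The XBP1 element TGACGTGG was in 0 of the 31 against 0.714% of all. These elements too were searched on both strands, and the matches in Calr and Creld2 were on the opposite strand. In the stretches below the element is in capitals, read on the strand of the gene, so that Calr shows its reverse complement.
Hspa5, chr2:34771995-34772073, plus strand: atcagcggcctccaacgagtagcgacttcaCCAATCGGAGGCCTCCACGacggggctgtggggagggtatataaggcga
Pdia6, chr12:17266461-17266539, plus strand: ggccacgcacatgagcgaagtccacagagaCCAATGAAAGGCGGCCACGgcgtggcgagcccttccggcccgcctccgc
Calr, chr8:84847045-84847123, minus strand: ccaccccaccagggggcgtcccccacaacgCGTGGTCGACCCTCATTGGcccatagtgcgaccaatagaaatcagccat
Herpud1, chr8:94386347-94386417, plus strand: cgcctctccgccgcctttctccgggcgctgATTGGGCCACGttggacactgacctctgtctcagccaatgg

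Total counts ran from 7823028 to 11052333 a library, and 3 counts, taken as the smallest amount told from none, equalled 0.271 to 0.3835 CPM, the counts scaled to a common library size with TMM factors, a limit for counting error alone. The 35 genes took 0.4001% to 0.6938% of the counts of a library. All 10 macrophage markers were detected in the libraries, from 20010 to 45420 CPM in sum over the supernatants and from 29370 to 36590 CPM in medium, while 4 of 8 lymphocyte markers, Cd3e among them, had 0 counts in every library. Fibroblast markers summed to 18.0 to 153 CPM in supernatants and 43.9 to 130 CPM in medium. Proliferation markers separated the groups most visibly, with 265.5 to 307.4 CPM in medium, 384.7 to 859.6 CPM in 4OHT and 1295 to 1609 CPM in ctrl, 4OHT_Fer1 and Fer1, and 10 of the 12 were higher in the mean of the 4 supernatants than in medium. In bulk RNA, fewer cells of a type and less RNA per cell cannot be told apart. The test was edgeR's quasi-likelihood test over all 14 libraries with the replicate number as a block and Benjamini-Hochberg (BH) adjustment over the 12851 genes, and a gene passed at an adjusted p under 0.05.

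**Figure D1:**
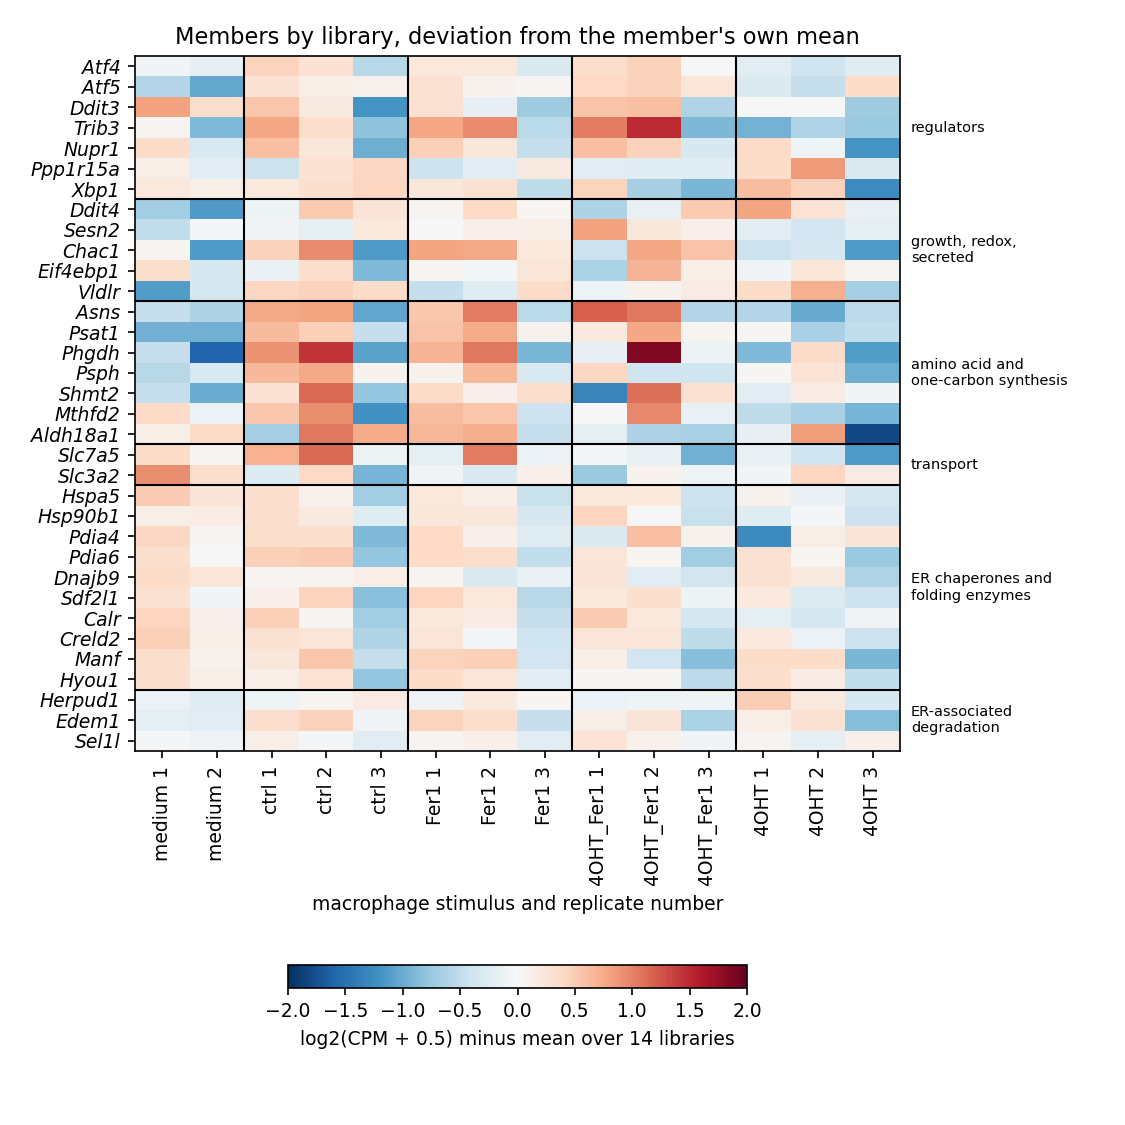
Deviation of each of the 34 tested genes (rows, ordered by role) in each of the 14 libraries (columns, by stimulus and replicate number) from the gene's own mean, in log2(CPM + 0.5), with red above and blue below. Psat1 and Atf5 are blue in both medium libraries, the ER chaperones are near white or pale red there, and most rows turn blue in the replicate 3 libraries of the supernatants.

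The question of the first comparison was whether medium that had been on MEFs changed these genes relative to fresh medium. In the mean of the 4 supernatants against medium, Atf5, Psat1 and Edem1 were higher, 3 of 34 (8.82%), where 5.86% of all tested genes were higher, and none was lower, where 7.28% of all genes were. The count of members was thus near that of genes in general. The 10 ER chaperones and folding enzymes did not pass, and their log2 fold changes stayed between -0.26 and 0.13. The median log2 fold change of the 34 was 0.12 beside -0.01 over all genes. Under the study's rule of an absolute log2 fold change above 1, 1 member passed, Psat1. The calls on these 3 genes needed both medium libraries: without medium replicate 1 the only member to pass was Phgdh, and without medium replicate 2 none did.

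Psat1 (ENSMUSG00000024640, chr19:15904678-15947337, minus strand, in the GENCODE M21 annotation of GRCm38) encodes phosphoserine aminotransferase, the middle step of serine synthesis from glycolysis. It stood at 5.07 and 5.11 CPM in the medium libraries. It was at 16.3, 14.6 and 7.39 CPM in ctrl replicates 1, 2 and 3, at 15.7, 17.7 and 10.9 CPM in Fer1, at 11.9, 18.1 and 10.7 CPM in 4OHT_Fer1 and at 10.5, 6.43 and 7.20 CPM in 4OHT. All 12 supernatant libraries lay above both medium libraries, with those of 4OHT and ctrl replicate 3 nearest to them. The mean of the 4 supernatants was 2.64-fold above medium (log2 fold change 1.40, SE 0.28, adjusted p = 0.00492 by edgeR with BH adjustment). Over the other fits the adjusted p ran from 7.18e-05 to 0.173, and it was above the threshold in the 4 that left a single medium library. A processed pseudogene, Gm3329, overlaps Psat1 on the opposite strand, and whether counting used the strand is not given in the sources used here.

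Atf5 (ENSMUSG00000038539, chr7:44812256-44816658, minus strand, same annotation) encodes a transcription factor related to ATF4, itself an ATF4 target and a regulator of the mitochondrial stress response. Medium replicates 1 and 2 held 19.5 and 14.3 CPM. The supernatant libraries held 36.4, 32.5 and 31.4 CPM (ctrl), 36.8, 31.2 and 30.3 CPM (Fer1), 39.5, 41.1 and 35.1 CPM (4OHT_Fer1) and 24.2, 21.5 and 38.5 CPM (4OHT). None of the 12 overlapped medium, and 4OHT replicates 1 and 2 came nearest to it. The log2 fold change of the 4 supernatants against medium was 0.94 (SE 0.22, adjusted p = 0.0128 by edgeR with BH adjustment), and the adjusted p reached 0.371 in the fits with a single medium library. Atf5 shares sequence on the opposite strand with Nup62 and Il4i1, so its counts carry the same doubt about strand.

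Edem1 (ENSMUSG00000030104, chr6:108828641-108859356, plus strand) encodes a mannosidase-like protein that hands misfolded glycoproteins to ER-associated degradation. Its medium libraries stood at 109 and 106 CPM. Replicates 1 and 2 of the supernatants ran from 134 to 170 CPM, all above medium, whereas replicate 3 was at 119 CPM in ctrl, 89.4 CPM in Fer1, 79.5 CPM in 4OHT_Fer1 and 68.0 CPM in 4OHT. The groups therefore overlapped, and 9 of 12 supernatant libraries lay above both medium libraries. With the replicate number as a block, the log2 fold change was 0.50 (SE 0.15, adjusted p = 0.0427 by edgeR with BH adjustment). Without the block it was 0.28, the smallest of the 10 other fits, and did not pass.

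**Figure D2:**
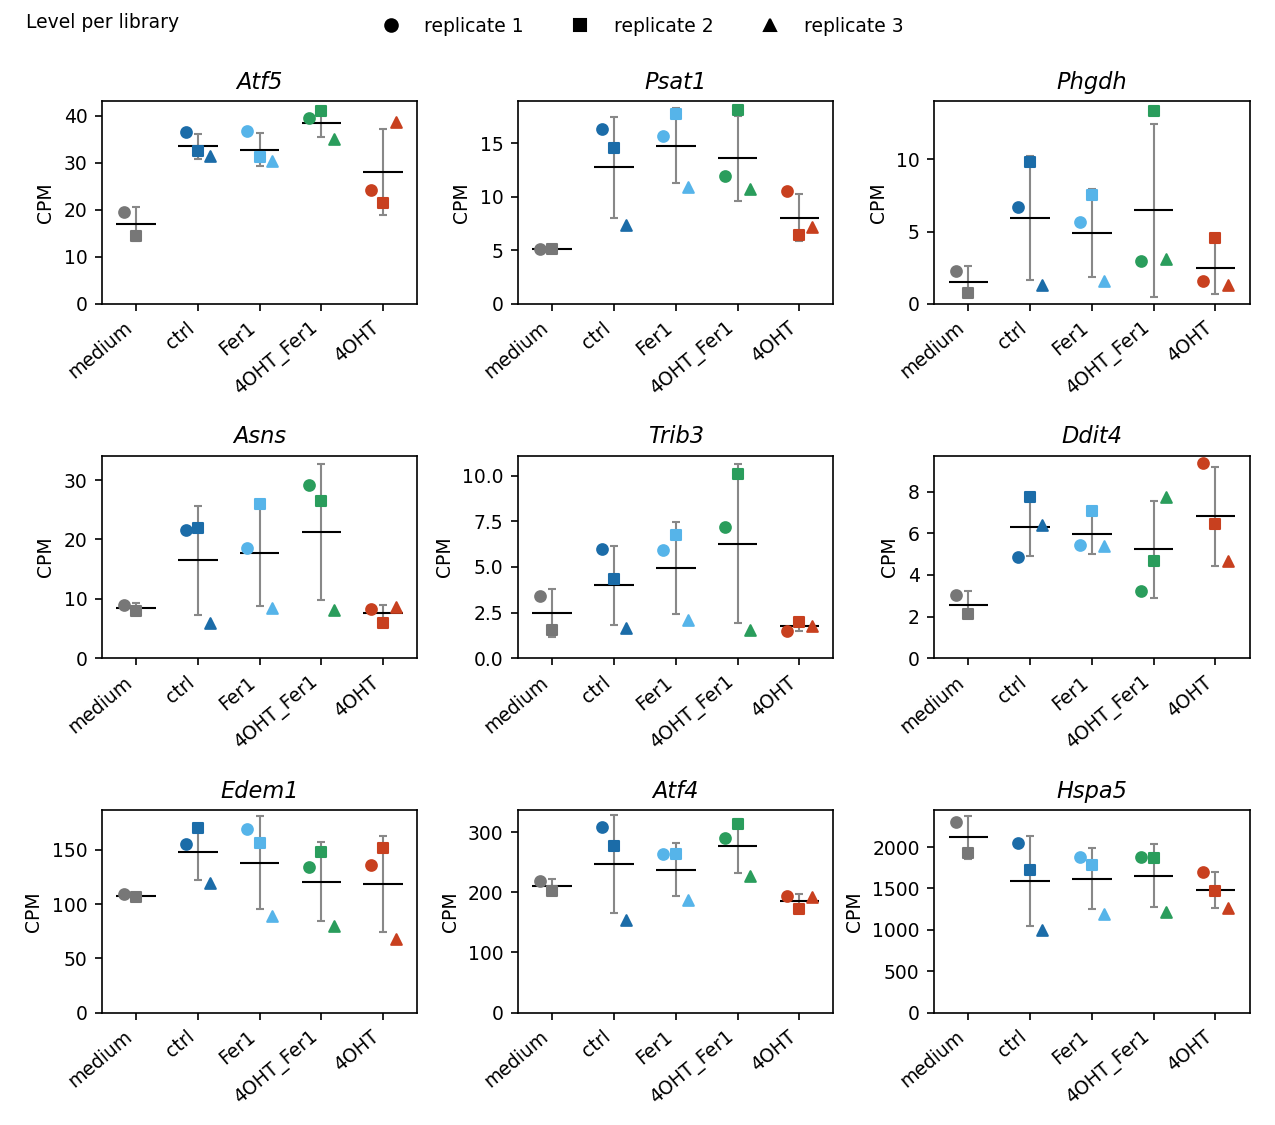
Level in CPM (vertical axes, from 0) of 9 genes in each library by stimulus, with circles, squares and triangles for replicates 1, 2 and 3, black lines for group means and grey bars for SD (n = 3, medium n = 2). Atf5 and Psat1 in medium lie below every supernatant library. Asns and Trib3 are at low values in 4OHT and in the replicate 3 libraries. So is Phgdh, except that 4OHT replicate 2 and the highest replicate 3 library, at 3.07 CPM, lie above both medium libraries. Hspa5 is at 1934 and 2303 CPM in medium.

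The remaining enzymes of serine, one-carbon, asparagine and proline synthesis had positive log2 fold changes against medium but did not pass. All 7 of the group were positive, from 0.03 to 1.86, with a median of 1.02. Without medium replicate 2, Mthfd2 (-0.18) and Aldh18a1 (-0.15) turned negative and the others stayed positive. Phgdh, the first enzyme of serine synthesis, had 2.28 and 0.778 CPM in medium, 6.68, 9.84 and 1.32 CPM in ctrl, and 1.58, 4.53 and 1.26 CPM in 4OHT. Its log2 fold change was 1.86 (SE 0.60, adjusted p = 0.0609 by edgeR with BH adjustment). DESeq2 called it (adjusted p = 0.0157). The edgeR log2 fold change of Phgdh was 3.38 without medium replicate 1 and 0.805 without medium replicate 2. Shmt2 and Mthfd2 encode mitochondrial enzymes that pass one-carbon units from serine to folate. Shmt2 had 7.23 and 4.89 CPM in medium and 3.76 to 22.9 CPM in the supernatants, which overlapped, and its log2 fold change was 1.02 (SE 0.53). That of Mthfd2 was 0.17 (SE 0.31). Psph, the last enzyme of serine synthesis, had 0.85 (SE 0.32) and Aldh18a1, the first enzyme of proline synthesis, 0.03 (SE 0.76). Shmt2 overlaps Ndufa4l2 and Psph overlaps Cct6a on the opposite strand, with the same doubt about strand.

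Asns, asparagine synthetase and a textbook ATF4 target, stood at 9.01 and 8.0 CPM in medium. In ctrl it was at 21.6, 22.0 and 5.85 CPM, in Fer1 at 18.5, 26.1 and 8.47 CPM, in 4OHT_Fer1 at 29.3, 26.5 and 8.18 CPM, and in 4OHT at 8.21, 5.98 and 8.59 CPM. The 6 libraries of replicates 1 and 2 outside 4OHT lay above medium, and the other 6 lay between 5.85 and 8.59 CPM, below the higher medium library. The log2 fold change of the 4 supernatants was 1.09 (SE 0.39, adjusted p = 0.0943 by edgeR with BH adjustment). Asns passed with DESeq2 (adjusted p = 0.0387) and without the replicate 3 libraries.

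Taken 1 supernatant at a time, the passing members were these. Against medium, ctrl had 4 members higher, where 5.28% of all genes were, and 0 lower against 5.58%. They were Psat1 (log2 fold change 1.46, adjusted p = 0.009), Psph (1.29, 0.0423), Atf5 (0.97, 0.0256) and Edem1 (0.72, 0.0192), by edgeR with BH adjustment. Psph, the phosphatase that ends serine synthesis, had 2.54 and 3.11 CPM in medium and 6.48, 7.03 and 4.19 CPM in ctrl, without overlap, and it overlaps a Cct6a transcript on the opposite strand. When ctrl and medium were fitted without the other groups, 11 of the 33 members tested passed, 10 of them higher and 1 lower, while the share of all genes that passed rose from 10.9% to 20.5%. In the fit of all groups, none passed without medium replicate 2 or without the 5 libraries numbered 2.

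In 4OHT_Fer1 against medium 4 members were higher, against 5.20% of all genes, and 0 lower, against 4.88%. Phgdh had a log2 fold change of 2.33 (adjusted p = 0.0458), Psat1 of 1.59 (0.00594), Asns of 1.55 (0.0454) and Atf5 of 1.18 (0.00957), by edgeR with BH adjustment. In Fer1 against medium 2 members were higher, against 5.16%, and 0 lower, against 4.91%. These were Psat1 with 1.70 (adjusted p = 0.0038) and Atf5 with 0.94 (0.0313). Without medium replicate 2, none passed in either supernatant, and in Fer1 DESeq2 called 5 members, and 1581 of 13180 genes in all.

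In 4OHT against medium, 0 of 34 members passed by edgeR, 4 had an unadjusted p under 0.05, as 15.8% of all genes did, and DESeq2 called 0. With 4OHT and medium fitted alone 5 of 32 passed, Ddit4 and Herpud1 higher and Mthfd2, Ddit3 and Calr lower, where 12.1% of all genes passed. In the fit of all groups, 1.92% of all genes were higher and 2.34% lower. Psat1 had a log2 fold change of 0.85 (adjusted p = 0.179), Atf5 of 0.70 (0.165) and Asns of 0.31 (0.856), by edgeR with BH adjustment. Ddit4 had 1.40 (0.115). These 4 comparisons share the same 2 medium libraries.

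The mean of ctrl, 4OHT_Fer1 and Fer1, which the labels put together as non-ferroptotic stimuli, was also set against medium, a comparison added after the data were seen. Then 5 members were higher, against 6.82% of all genes, and 0 lower, against 7.85%. Without the libraries numbered 2 none passed, without those numbered 1 or without either medium library 1 did, and without the block 2 did, where 7.46% of all genes did. Without the libraries numbered 3, 8 passed, 7 of them higher, where 19.0% of all genes passed. The 5 were Phgdh (log2 fold change 2.15, adjusted p = 0.0314), Psat1 (1.59, 0.00226), Asns (1.35, 0.0401), Atf5 (1.03, 0.00773) and Edem1 (0.56, 0.0266), by edgeR with BH adjustment. Of the 5, 4 were past a log2 fold change of 1, and 3 belong to serine and asparagine synthesis. Proliferation markers moved with this contrast, from 265.5 to 307.4 CPM in medium to 1295 to 1609 CPM in these 3 groups, and their part in the result was not tested.

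Among the regulators, 1 of 7 passed against medium, Atf5. Atf4 mRNA stood at 219 and 202 CPM in medium, at 309, 277 and 154 CPM in ctrl and at 194, 172 and 192 CPM in 4OHT. The supernatant libraries lay on both sides of medium, 7 of 12 above both and 5 of 12 below both. The log2 fold change was 0.29 (SE 0.18, adjusted p = 0.354 by edgeR with BH adjustment).

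Ddit3 (CHOP), which promotes death under prolonged stress, was at 93.8 and 68.7 CPM in medium and at 23.3 to 81.5 CPM in the supernatants, with 9 of 12 below both medium libraries. Its log2 fold change was -0.31 (SE 0.18, adjusted p = 0.309 by edgeR with BH adjustment). Ddit3 overlaps Mars, the gene of methionyl-tRNA synthetase, on the opposite strand. Xbp1 was at 141 and 132 CPM in medium and at 50.8 to 187 CPM in the supernatants, with a log2 fold change of 0.11 (SE 0.32, adjusted p = 0.884). Trib3, a pseudokinase that restrains ATF4, was at 1.47 to 10.1 CPM in the supernatants and at 3.43 and 1.56 CPM in medium (log2 fold change 0.98, adjusted p = 0.202). Nupr1, a stress-induced chromatin protein, and Ppp1r15a, the subunit that dephosphorylates eIF2, had log2 fold changes of 0.33 and 0.04 and did not pass.

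The effectors of growth and redox control held no passing member. Ddit4, an inhibitor of mTORC1, had 3.04 and 2.11 CPM in medium and 3.24 to 9.37 CPM in the supernatants, and all 12 supernatant libraries were above both medium libraries. Its log2 fold change was 1.22 (SE 0.40, adjusted p = 0.0685 by edgeR with BH adjustment), and DESeq2 called it (adjusted p = 0.0359). Chac1, which degrades glutathione, had 0 to 16 counts a library and cannot be ranked at this depth (log2 fold change 1.41, SE 1.15, adjusted p = 0.503). Vldlr, a lipoprotein receptor, was at 0.885 to 3.08 CPM in the supernatants and at 0.507 and 1.22 CPM in medium (log2 fold change 1.19, adjusted p = 0.171). Sesn2, a leucine sensor, and Eif4ebp1, a repressor of cap-dependent translation, had log2 fold changes of 0.28 and 0.003.

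Of the subunits of the large neutral amino acid transporter, Slc3a2 (the heavy chain) had 209 and 139 CPM in medium and 57.6 to 148 CPM in the supernatants. Of the 12 supernatant libraries, 10 lay below both medium libraries, with a log2 fold change of -0.74 (SE 0.28, adjusted p = 0.113 by edgeR with BH adjustment). Slc3a2 was lower without the replicate 3 libraries (adjusted p = 0.0494). Its log2 fold change depended on the medium library kept, at -0.16 without medium replicate 1 and -1.18 without medium replicate 2. The light chain Slc7a5 was near the detection limit, at 0.126 to 2.51 CPM.

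In the mean of the 4 supernatants against medium, 0 of the 10 ER chaperones and folding enzymes had an adjusted p under 0.05 by edgeR or DESeq2, and 0 had an unadjusted p under 0.05 by edgeR, as 25.9% of all genes did. With only the groups compared in the fit, edgeR called Calr lower in 4OHT than in medium (log2 fold change -0.56, adjusted p = 0.0236). In the same way Dnajb9 was called lower in Fer1 than in medium (-0.44, adjusted p = 0.039). Of all genes 12.1% passed in the first of these fits and 30.7% in the second. Hspa5 (BiP), the main ER chaperone and a binding partner of the stress sensors, had 2303 and 1934 CPM in medium. It had 2053, 1718 and 998 CPM in ctrl, 1881, 1779 and 1193 CPM in Fer1, 1883, 1872 and 1212 CPM in 4OHT_Fer1, and 1703, 1472 and 1269 CPM in 4OHT. No supernatant library exceeded both medium libraries, and 11 of 12 lay below both. The log2 fold change was -0.24 (SE 0.14, adjusted p = 0.313 by edgeR with BH adjustment).

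The other 9 of this role had log2 fold changes against medium between -0.26 (Dnajb9, a co-chaperone of BiP) and 0.13 (Pdia6, a disulfide isomerase). Between them lay Hsp90b1, Calr and Hyou1, which are chaperones, Pdia4, a disulfide isomerase, and Sdf2l1, Creld2 and Manf, ER proteins induced by unfolded protein. In sum the 10 genes took 4805 and 5662 CPM in medium and 2832 to 5608 CPM in the supernatants. Of the degradation genes, Herpud1 (log2 fold change 0.26) and Sel1l (0.11), an adaptor of the ubiquitin ligase, did not pass. Hspa5, Pdia6 and Calr, whose ER stress response elements are shown above, had log2 fold changes of -0.24, 0.13 and -0.12.

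**Figure D3:**
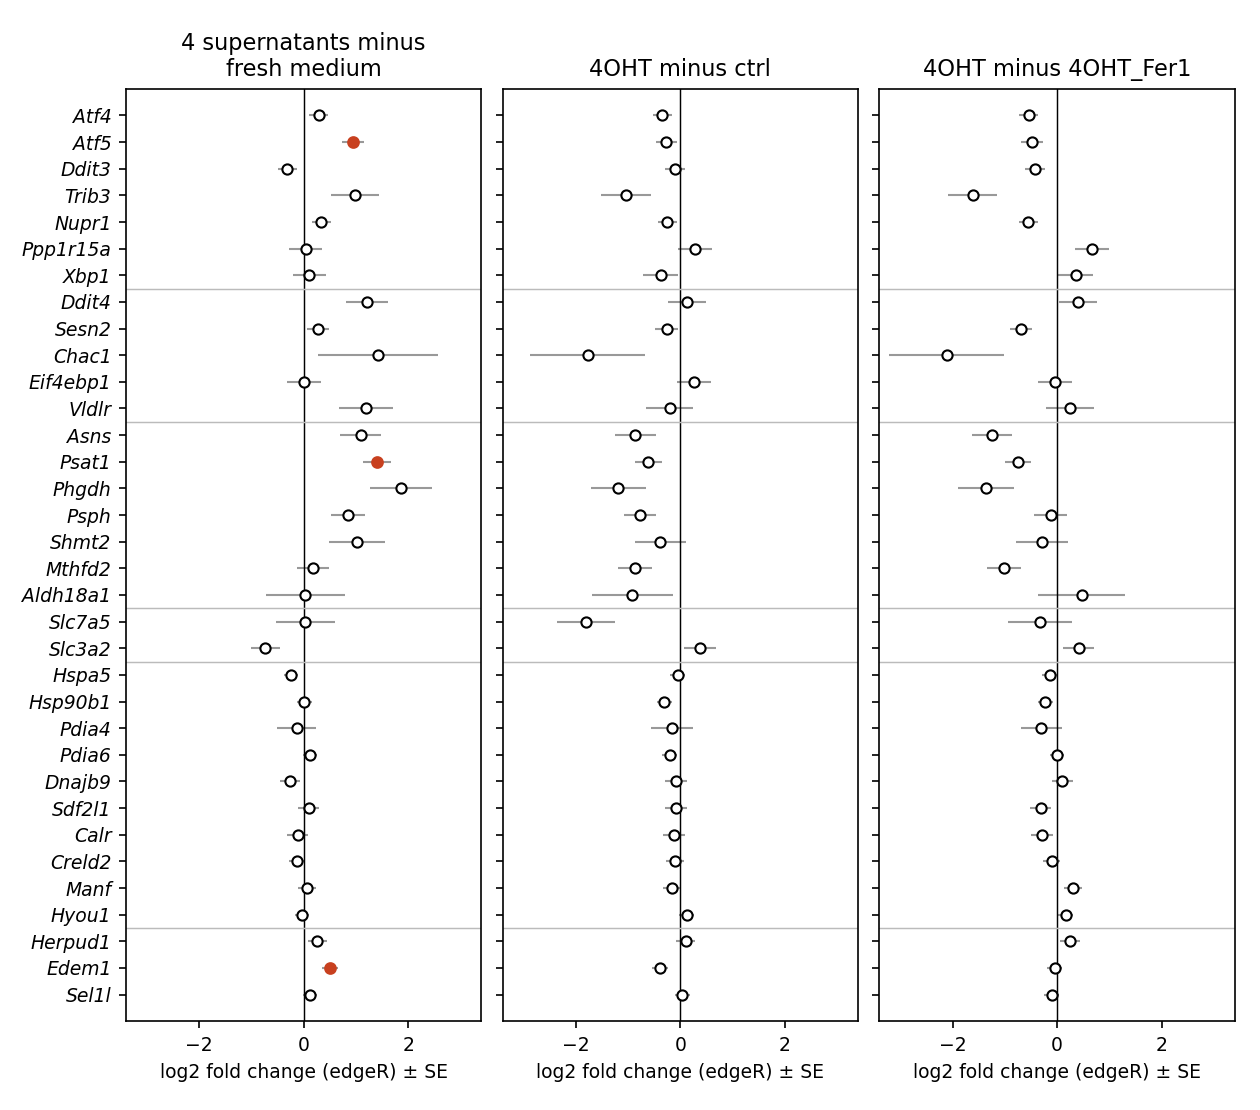
Log2 fold change (horizontal axes) with SE of each tested gene (rows, in order of role, split by grey lines) in the mean of the 4 supernatants minus medium, in 4OHT minus ctrl and in 4OHT minus 4OHT_Fer1. Red points passed edgeR's test at an adjusted p under 0.05 (Atf5, Psat1 and Edem1, left panel), white points did not, and the 7 amino acid and one-carbon synthesis enzymes all lie right of 0 in the left panel and left of 0 in the middle one.

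Ferroptotic supernatant was then compared with the supernatant of untreated MEFs. In 4OHT against ctrl 0 of 34 members passed by edgeR, where 0.482% of all genes were higher and 1.01% lower, and DESeq2 also called 0. An unadjusted p under 0.05 was reached by 8 members (10.8% of all genes reached it), 5 of them enzymes of amino acid and one-carbon synthesis. All 7 enzymes of that role had negative log2 fold changes, from -1.19 to -0.38, and the median of the 34 was -0.23 beside 0.01 over all genes. The 7 enzymes in sum ran from 46.6 to 58.4 CPM in the 4OHT libraries and from 41.7 to 147 CPM in ctrl, so the groups overlapped through ctrl replicate 3.

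Phgdh had the most negative of these 7 values at -1.19 (SE 0.53, adjusted p = 0.446 by edgeR with BH adjustment). Asns had -0.87 (SE 0.39, adjusted p = 0.452). Within replicate numbers, Asns in 4OHT differed from ctrl by -1.37 and -1.84 in log2 CPM for numbers 1 and 2 and by 0.54 for number 3, where ctrl was at 5.85 CPM. Slc7a5 had -1.81 (SE 0.55, adjusted p = 0.177), lower in 4OHT in each of the 3 numbers but at 0.126 to 0.737 CPM there. Atf4 had -0.35 (SE 0.18, adjusted p = 0.548). Without the libraries numbered 3, 2 members passed in this comparison, Asns (adjusted p = 0.0132) and Atf4 (0.0495), both lower in 4OHT, where 1.99% of all genes passed. Over the other fits, the adjusted p of Asns ran up to 0.928.

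Ddit3 had a log2 fold change of -0.10 (adjusted p = 0.914), Hspa5 of -0.05 (0.949) and Xbp1 of -0.38 (0.797) in 4OHT against ctrl, and the sign of each turned when a replicate number was left out. Chac1 had -1.77 (SE 1.10, adjusted p = 0.652). The 10 ER chaperones ranged from -0.31 to 0.12, and none had an unadjusted p under 0.05. Proliferation markers moved with this contrast too, 5 of 12 lower in 4OHT, and so did Tyms, thymidylate synthase (log2 fold change -1.24, adjusted p = 0.0197). Their part in the values of the serine enzymes was not tested.

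The comparison with 4OHT_Fer1 holds 4OHT constant and sets dying against rescued MEFs. These supernatants also differ in the Ferrostatin-1 that they carried, and its part was not tested. In 4OHT against 4OHT_Fer1 0 of 34 members passed by edgeR and 0 by DESeq2, with 10 at an unadjusted p under 0.05, as 11.8% of all genes were, while 0.412% of all genes were higher and 0.942% lower. Trib3 had -1.61 (SE 0.47, adjusted p = 0.153), with 1.47, 1.99 and 1.77 CPM in 4OHT and 7.21, 10.1 and 1.53 CPM in 4OHT_Fer1. The groups overlapped through the replicate 3 library of 4OHT_Fer1. Asns had -1.25 (SE 0.39, adjusted p = 0.189), Mthfd2, a mitochondrial folate enzyme, -1.01 (0.199) and Atf4 -0.55 (0.217), by edgeR with BH adjustment. Hspa5 had -0.14, Xbp1 0.35, Ddit3 -0.43 and Chac1 -2.11, with adjusted p-values from 0.409 to 0.809. In this contrast 5 of 12 proliferation markers (median log2 fold change -1.01) and 1 of 5 tested fibroblast markers were lower in 4OHT too, and their part in these values was not tested.

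Without the libraries numbered 3, 4 members passed in 4OHT against 4OHT_Fer1, all lower in 4OHT: Asns (adjusted p = 0.00601), Trib3 (0.0232), Atf4 (0.0401) and Atf5 (0.0494). Of all genes 2.39% passed in that fit. With no filter on low counts 1 passed, Trib3, where 1.27% of all genes did. Against the mean of the 3 non-ferroptotic supernatants, a contrast added after the data were seen, 0 members passed by edgeR, with 9 at an unadjusted p under 0.05 (13.8% of all genes), where 1.21% of all genes were higher and 1.74% lower. DESeq2 called 4 there, all lower in 4OHT: Mthfd2 (log2 fold change -0.94), Asns (-1.01), Psat1 (-0.74) and Trib3 (-1.29), and it called 4.93% of all genes. Without the libraries numbered 3, edgeR called 6 members, all lower in 4OHT, and 5.05% of all genes. They were Asns, Trib3, Atf4, Atf5, Mthfd2 and the chaperone Calr (log2 fold change -0.54). Of the proliferation markers, 6 of 12 were lower in 4OHT in this contrast. These contrasts share the 3 libraries of 4OHT.

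The effect of 4OHT without Ferrostatin-1 was then tested against its effect with it. By edgeR and by DESeq2 0 of 34 members passed, where 0.0311% and 0.718% of all genes did. By edgeR 1 member had an unadjusted p under 0.05, as 6.2% of all genes did. This was Atf4 (difference of log2 fold changes -0.58, SE 0.25, adjusted p = 0.789). By edgeR and by DESeq2, 0 members passed in 4OHT_Fer1 against ctrl or in Fer1 against ctrl, where edgeR called 0.0311% and 0% of all genes. An unadjusted p under 0.05 was reached by 4 and 0 members, and by 4.31% and 1.14% of all genes.

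The libraries numbered 3 stood apart for these genes. In all 4 supernatants the library numbered 3 was the lowest of its group for 12 of the 34 genes (35.3%), against 7.63% of all tested genes. Among the ER chaperones this held for 7 of 10. Over the 4 supernatants, the median difference of number 3 from the mean of numbers 1 and 2 was -0.64 in log2 CPM for the 34 genes and -0.01 over all genes. Hspa5 ran from 998 to 1269 CPM in the libraries numbered 3 and from 1472 to 2053 CPM in those numbered 1 and 2, without overlap. Pdia6 ran from 152 to 184 CPM against 268 to 368 CPM, Ddit3 from 23.3 to 35.4 CPM against 47.7 to 81.5 CPM, and Nupr1 from 8.47 to 15.8 CPM against 18.6 to 30.4 CPM.

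Atf5 (difference 0.07), Sesn2 (0.03) and Ddit4 (0.03) had no such difference on average. For Atf5 the library numbered 3 was still the lowest in ctrl, Fer1 and 4OHT_Fer1 and the highest in 4OHT, at 38.5 CPM. Medium had no library numbered 3, so that these levels in medium cannot be known for that number. This is a description of 1 number, taken to be 1 mouse, with no test. Its values are given here because the number decides which members pass in 4OHT against ctrl and 4OHT against 4OHT_Fer1.

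**Figure D4:**
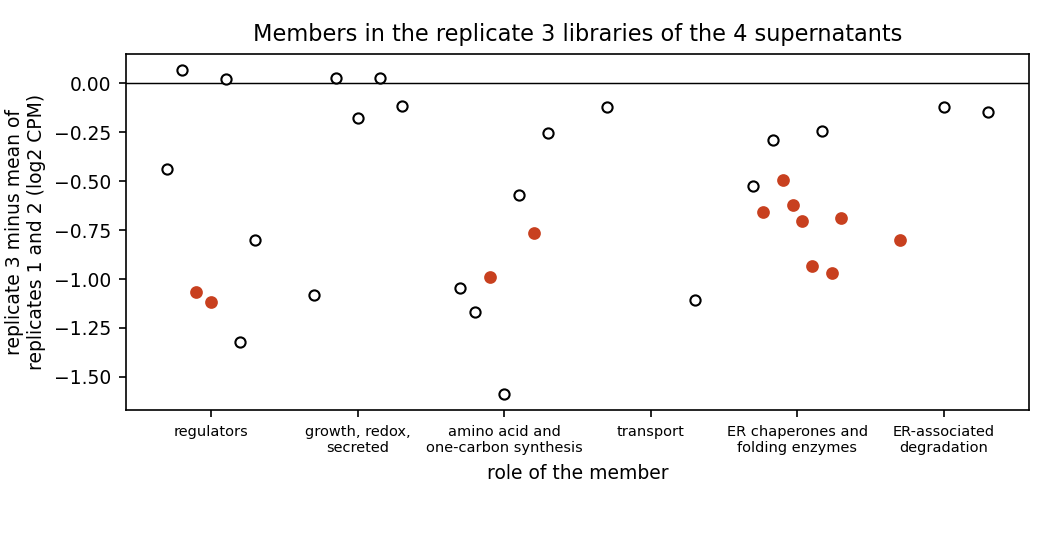
Difference in log2 CPM between the libraries numbered 3 and the mean of those numbered 1 and 2 over the 4 supernatants (vertical axis) for each tested gene, by role (horizontal axis). Red points are the 12 genes for which number 3 was the lowest in all 4 supernatants, 7 of them ER chaperones.

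The neighbouring genes of the same pathways, taken from lists by function, were also compared between the mean of the supernatants and medium. Of all tested genes 13.1% passed there. By list, the share that passed ran from 2.78% (further ER genes) to 20% (other amino acid transporters). Of 22 other ATF4 targets 1 was higher and 1 lower. Gdf15, a secreted stress cytokine, rose from 6.22 and 12.1 CPM in medium to 12.5 to 41.3 CPM in the supernatants (log2 fold change 1.65, SE 0.32, adjusted p = 0.00427 by edgeR with BH adjustment). Atf3, a transcription factor, fell from 351 and 328 CPM to 103 to 234 CPM (-0.94, SE 0.22, adjusted p = 0.0128). Of 15 other amino acid transporters 1 was higher, Slc38a2, which carries glutamine and is an ATF4 target, at 138 and 145 CPM in medium and 171 to 307 CPM in the supernatants without overlap (log2 fold change 0.90, SE 0.13, adjusted p = 0.000559). Slc7a2 and Slc7a8 were lower (-1.30 and -0.94).

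Of 18 cytosolic tRNA synthetases 2 were higher, Mars1 (log2 fold change 0.82) and Aars (0.76), and none was lower. Mars1 lies opposite Ddit3. Of 36 further ER genes 1 was higher, Dnajc10, an ER disulfide reductase (0.57), and of 14 stress sensors and eIF2 regulators 1 was lower, Atf6 (-0.50, SE 0.13, adjusted p = 0.0223). Of 16 heat shock genes outside the ER 2 were lower, Hspb1 (-2.92) and Hspa8 (-0.46). Of 20 other serine and one-carbon enzymes 2 were higher, among them Tyms (1.66), used in DNA synthesis.

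In 4OHT against ctrl, none of the other ATF4 targets, transporters, tRNA synthetases, sensors, further ER genes or heat shock genes passed by edgeR, with between 0 and 3 genes of each list at an unadjusted p under 0.05. Markers of other cells moved with the contrast against medium: 5 of 10 macrophage markers, 3 of the 5 tested of 10 fibroblast markers (Col1a1, Col1a2 and Fn1) and all 3 tested of 8 neutrophil markers (S100a8, S100a9 and Camp) were lower in the supernatants. The neutrophil markers summed to 35.1 to 48.7 CPM in medium and to 2.87 to 25.5 CPM in the supernatants, and their part in the results on these genes was not tested.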

How the data were processed

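QuantSeq 3′ libraries of 14 macrophage samples were analysed. The authors aligned reads with STAR 2.7.10a and quantified genes with Salmon 1.5.2, and deposited expected counts per gene without normalization. The study's methods name a human genome, the processing notes list GRCh38 and GRCm38, and the identifiers are those of mouse genes (52081 of 55414 in GENCODE M21). A deposited table of the authors' DESeq2 comparisons (log2 fold changes, p-values and CPM) was not used.

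Expected counts were rounded (30109 values were not whole), scaled by TMM (factors 0.9096 to 1.057) and filtered with filterByExpr (minimum count 10). The test was edgeR's (4.0.16, under R 4.3.3) quasi-likelihood F test, BH-adjusted across all tested genes. The model held the group and the replicate number of the sample titles, taken to be the mouse, which the study's design included; where it is not, p-values measure the spread between these samples. Across genes, which are not independent, deviations from group means correlated with a median r of 0.247 (0.002 to 0.646) for 26 pairs of samples sharing a number. The median was -0.139 (-0.532 to 0.245) for 52 others. Deviations within a group sum to 0, so a positive median for the first pairs lowers that of the others, and the ranges overlapped. Replicates of a group differed beyond sampling noise (chi-square per degree of freedom 11.7 to 86.7). SE were taken as the log2 fold change over the root of its F value. A design with 3 samples against 2 or 3 gives an exact permutation p of 0.1 at best, so calls rest on edgeR. PCR duplicates were not removed by molecular identifiers, so the count limit covers counting error.

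Genes were chosen by symbol, and the roles, lists, markers and motifs were chosen with earlier results of these data known. The rule gave values to members that passed in the 4 supernatants, or ctrl, against medium or in 4OHT against ctrl or 4OHT_Fer1, with Atf4, Ddit3, Xbp1, Hspa5, Asns and Chac1 throughout. The other members have ranges or log2 fold changes. Some of them, such as Phgdh, Ddit4, Trib3 and Slc3a2, also have values of single libraries although they passed in none of those comparisons. From other lists, up to 5 passing genes were named. The scripts were tested on simulated data. Alternatives were DESeq2 1.42.0, RLE scaling, no filter, a filter of 50 counts in 2 samples, no replicate block, only the groups compared, and each replicate number or medium library left out. Promoters came from RefSeq, and overlapping genes from GENCODE M21. Some genes that enter the counts of lists are not reported here by name.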

Additional observations from a re-analysis of the deposited data

How the results depend on the processing

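In the mean of the 4 supernatants against medium, 3 members passed by edgeR, where 13.1% of all genes did. With DESeq2 6 passed (13.7% of all genes) and with no filter on low counts 5 (7.43%). With the 4OHT group left out of the mean 5 passed (14.7%). Of the 3, 1 was past an absolute log2 fold change of 1. Of the 4 in ctrl against medium, 2 were past an absolute log2 fold change of 1. Without the replicate block 1 member passed there (4.07% of all genes). In the fit of the 2 groups compared 11 passed (20.5%, against 10.9% in the fit of all groups). In 4OHT against 4OHT_Fer1 the count went from 0 to 1 with no filter (1.27% of all genes). In the comparisons to which the alternatives were extended after seeing the data, 5 passed in 4OHT against medium when these groups were fitted alone, 2 higher and 3 lower (12.1% of all genes passed). In 4OHT_Fer1 against medium 1 passed without the replicate block (4.45% of all genes). In Fer1 against medium 5 passed with DESeq2 (12% of all genes) and 4 with no filter (5.71%). The fit of these groups alone gave 13, 10 higher and 3 lower (30.7% of all genes, against 10.1% in the fit of all groups). At the fold threshold 1 passed. The 5 in the mean of ctrl, 4OHT_Fer1 and Fer1 against medium became 2 without the replicate block (7.46% of all genes) and 8 with no filter (8.28%). In 4OHT against that mean the count went from 0 to 4 with DESeq2 (4.93% of all genes) and 3 with no filter (2.35%). RLE scaling and the stricter filter kept every count within 1.5 times. The count of members passing without the replicate block was 2 in the mean of the 4 supernatants (6.36% of all genes). It was 0 in 4OHT against ctrl and 4OHT_Fer1 (0.0545% and 0.156%).

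With replicate numbers and medium libraries left out in turn, the counts ran from 0 to 6 (4 supernatants against medium), 0 to 5 (ctrl against medium), 0 to 1 (4OHT against medium), 0 to 4 (4OHT_Fer1 and Fer1 against medium), 0 to 2 (4OHT against ctrl), 0 to 4 (4OHT against 4OHT_Fer1), 0 to 8 (ctrl, 4OHT_Fer1 and Fer1 against medium) and 0 to 6 (4OHT against those 3). Leaving out number 1 or 2 also leaves a single medium library, which is then assumed to vary like the other groups. The share of all genes that passed moved as well. Without number 3, which keeps both medium libraries, it was 16.5% in the 4 supernatants against medium, where 6 members passed (13.1% in the main fit). In the mean of ctrl, 4OHT_Fer1 and Fer1 against medium it was 19%, where 8 members passed (14.7% in the main fit). The sign of Xbp1 turned to -0.10 against medium without the block. In 4OHT against ctrl, with each number left out, the log2 fold change of Xbp1 ran from -0.72 to 0.25, of Ddit3 from -0.37 to 0.13 and of Hspa5 from -0.26 to 0.064, turning sign without number 3, number 1, and numbers 1 and 2, with no call in any. The causes were not tested. Depth limits Stc2, Chac1, Slc7a5, Aldh18a1 and Vldlr most, which had the fewest counts of the 35 genes (6 to 244 over the 14 libraries).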
